A study of Mus musculus with 20 samples.

Results

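Wild-type (WT) neurospheres that had been moved from growth to differentiation were compared with WT neurospheres kept in growth, across all genes of the deposited count table. The libraries were chosen by their labels alone: WT differentiation replicates 7 and 8, and WT proliferation replicates 7 and 8. They are 4 of the 8 labelled libraries with a count column and 4 of the 20 samples that the labels name. Neurospheres are floating clusters grown from neural stem cells, here from mouse spinal cord. WT differentiation was sampled after 5 days of differentiation, and WT proliferation after 7 days of growth as neurospheres with heparin, EGF and FGF2 added to the medium. The basal medium (DMEM-F12 with N2, B27, glutamine and antimicrobials) was common to all cultures. The study depletes YAP1 with an adenovirus that expresses Cre from a CMV promoter, a promoter not restricted to 1 cell type. The labels do not say whether the WT cells received that virus or carried the allele it recombines. Growth factors, days in culture and the change from growth to differentiation differ together between the groups, so their parts cannot be told apart. Each group has n = 2. Nothing in the labels ties the replicates to separate cultures or animals, so a p-value here measures the spread among the libraries fitted alone. That spread may be technical. In the results, WT is left out where the group is called differentiation or proliferation.

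Neural stem cells of the spinal cord divide in response to EGF and FGF2, which act through receptor tyrosine kinases and the kinase ERK, and ERK in turn raises D cyclins that carry cells into S phase. When the growth factors are taken away the cells leave the cycle and turn to glial or neuronal fates, in spinal cord cultures mostly to astrocytes, the glial cells that take up glutamate, buffer potassium and water and supply lipids. The proteins that copy DNA are made under E2F factors, and those of mitosis later in the cycle under the DREAM and MuvB complexes. These complexes read the DNA element called CHR near the gene start. Another promoter element, the CCAAT box, was counted beside it.

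The WT differentiation libraries held 18217134 and 18538656 counts, against 18940983 and 18448939 counts for WT proliferation (replicates 7 and 8, the order used throughout). Of 16927 genes listed, 13046 passed the filter on low counts and were tested. Across genes, which are not independent replicates, Pearson's r between both libraries was 0.972 in WT differentiation and 0.976 in WT proliferation. The libraries of a group still differed by more than counting noise (chi-square per degree of freedom 38.8 in WT differentiation and 33.1 in WT proliferation). The 4 libraries of YAP1-depleted (KO) cultures entered the filter, the scaling and the model, where they added to the estimates of the spread and the replicate block. They also served for the comparison of WT and KO responses. With the WT libraries alone 12732 genes were tested. Values are normalised read counts in CPM, scaled to the TMM-adjusted library size, and they are not divided by gene length. Each log2 fold change is given with its standard error after the ± sign. In bulk samples, fewer cells of a type and less RNA per cell cannot be told apart.

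The change of culture reached most of the genes measured. At an adjusted p under 0.05 (edgeR quasi-likelihood test with replicate number as a block), 4409 genes (33.8%) were higher in WT differentiation and 4375 (33.5%) were lower. Genes shown to change by more than 2-fold (edgeR glmTreat, same threshold) numbered 1710 (13.1%) higher and 1346 (10.3%) lower. An unadjusted p under 0.05 was reached by 70.4% of tested genes. The libraries of both groups did not overlap for 81.2% of tested genes, of which 40.6% were higher and 40.6% lower in WT differentiation (shares of all tested genes). The median log2 fold change over all tested genes was 0.01, a value that TMM scaling sets near 0. The shares of 33.8% higher and 33.5% lower are the background for the counts of every gene list. Among the called genes, 331 rose and 296 fell by more than 16-fold. As many as 39 genes stood at or below 1 CPM in both WT proliferation libraries and at or above 10 CPM in both WT differentiation libraries, and 88 genes did the reverse. Within replicate number 7 and within replicate number 8 the difference had the same sign for 89.7% of all tested genes and for 99.9% of the called ones. The call rests on the same libraries, so the share among called genes is not separate evidence of agreement.

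**Figure D1:**
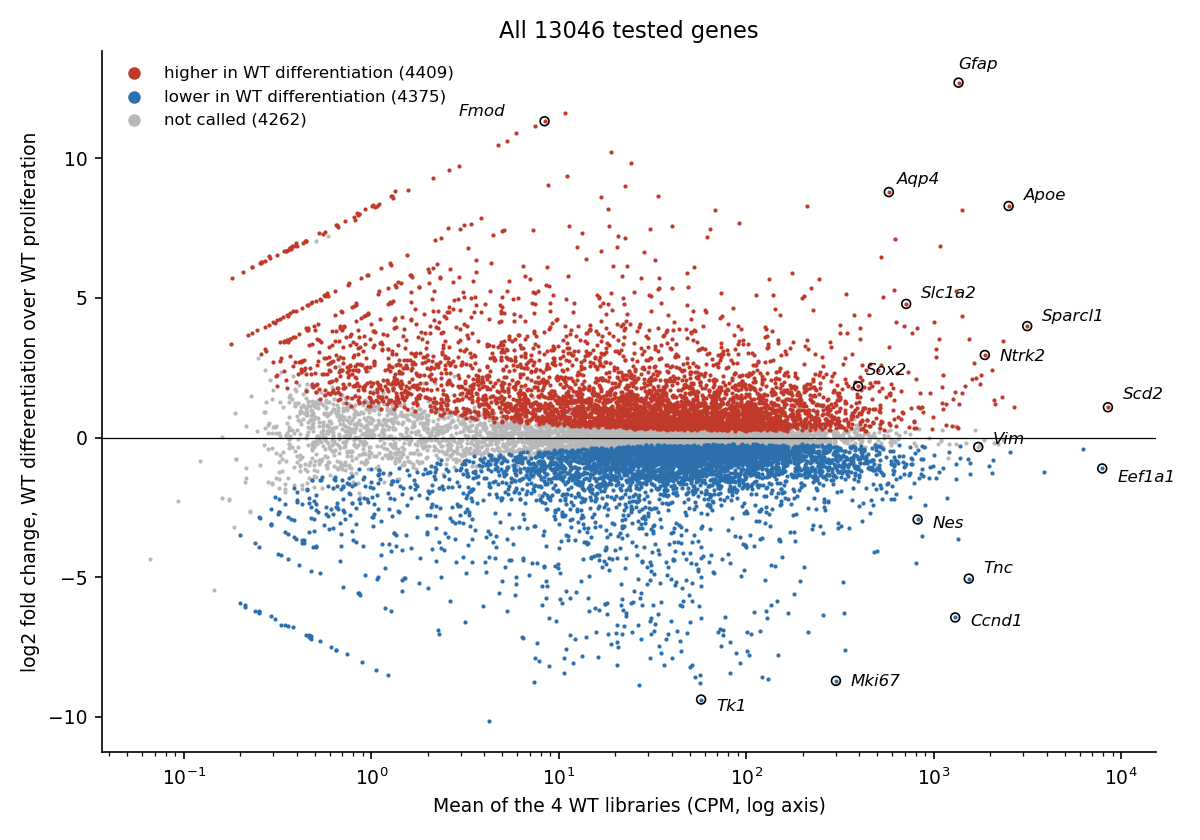
Each point is 1 of the 13046 tested genes, with the mean of the 4 WT libraries in CPM on a log axis against the log2 fold change of WT differentiation over WT proliferation. Red points are the 4409 genes higher in WT differentiation, blue points the 4375 lower and grey points those not called. Gfap lies highest among abundant genes and Tk1 and Mki67 among the lowest, and the slanted rows at the left edge are genes with no count in 1 group, whose fitted values depend on the prior count.

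Genes of cell division fell furthest. All 45 tested genes of DNA replication and S phase fell (median log2 fold change -3.66), and 47 of 48 mitosis genes fell (median -6.80), beside the 33.5% of all tested genes that fell. Summed over the list, mitosis genes held 233 and 228 CPM in WT differentiation, against 7460 and 7887 CPM in WT proliferation. DNA replication genes held 591 and 600 CPM in WT differentiation, against 5842 and 5984 CPM in WT proliferation. Both lists were thus low in each WT differentiation library and high in each WT proliferation library, with no overlap. The mean sum in differentiation was 3.00% of that in proliferation for mitosis genes and 10.1% for DNA replication genes. With 1 of the 4 libraries left out the counts were the same, and the medians ran from -6.86 to -6.63 for mitosis and from -3.70 to -3.59 for DNA replication.

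Tk1, thymidine kinase of the nucleotide salvage pathway (gene ID 21877, chromosome 11, 117815519 to 117826087), had 0.168 and 0.161 CPM in differentiation, against 123 and 106 CPM in proliferation, the steepest fall among the genes named by the rule (log2 fold change -9.38 ± 0.2, edgeR adjusted p = 9.07e-08). Mki67, the antigen Ki-67 that coats mitotic chromosomes (gene ID 17345, chromosome 7, 135689784 to 135716450), had 1.12 and 1.72 CPM in differentiation, against 545 and 655 CPM in proliferation. Both differentiation libraries lay far below both proliferation libraries (log2 fold change -8.71 ± 0.242, edgeR adjusted p = 1.61e-07). Uhrf1, which brings the maintenance DNA methyltransferase to replicated DNA, had 6.45 and 7.99 CPM in differentiation, against 357 and 346 CPM in proliferation. The enzyme itself, Dnmt1, stood at 73.8 and 75.8 CPM in differentiation, against 429 and 474 CPM in proliferation and thus kept a larger share of its level (log2 fold change -2.59 ± 0.102, edgeR adjusted p = 5.03e-07). Pole, the catalytic subunit of the leading strand polymerase, had 3.59 and 3.38 CPM in differentiation, against 114 and 108 CPM in proliferation. Lig1, the ligase that joins Okazaki fragments, had 12.1 and 13.2 CPM in differentiation, against 176 and 190 CPM in proliferation. Chaf1b, a subunit of the chromatin assembly factor of replication, had 0.505 and 0.751 CPM in differentiation, against 59.3 and 61.3 CPM in proliferation, and the late S phase repressor E2f8 had 0.224 and 0.429 CPM in differentiation, against 68.3 and 71.3 CPM in proliferation. Except Dnmt1, each of these S phase genes was under 14 CPM in both differentiation libraries.

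Among mitosis genes, Ccnb1, the B-type cyclin that drives entry into mitosis (gene ID 268697, chromosome 13, 100778739 to 100786486), had 0.224 and 1.07 CPM in differentiation, against 254 and 264 CPM in proliferation (log2 fold change -8.64 ± 0.323, edgeR adjusted p = 1.15e-06). Bub1, a kinase of the spindle checkpoint, had 0.337 and 0.322 CPM in differentiation, against 100.1 and 99.6 CPM in proliferation. Aurkb, the kinase of the chromosomal passenger complex, had 0.168 and 0.322 CPM in differentiation, against 104 and 122 CPM in proliferation. Both kinase genes were below 1 CPM in each differentiation library. The kinetochore genes Cenpe and Cenpf fell by 7.01 and 7.78 on the log2 scale, the mitotic kinesin gene Kif11 by 6.25, the spindle assembly gene Tpx2 by 6.22 and the midzone gene Prc1 by 6.47 (edgeR adjusted p between 9.07e-08 and 9.84e-08). Pttg1, securin, which holds separase inactive until anaphase (gene ID 30939, chromosome 11, 43420244 to 43427463), was the 1 mitosis gene that rose, with 33.1 and 26.8 CPM in differentiation, against 19.8 and 14.4 CPM in proliferation (log2 fold change 0.81 ± 0.121, edgeR adjusted p = 0.000531). Other steep falls by the rule were those of Pbk, a mitotic kinase, Pclaf, a partner of PCNA, and Depdc1a and Pimreg, both genes of dividing cells. Each was below 1 CPM in both differentiation libraries. Mxd3, a partner of MAX, had 0 and 0.107 CPM in differentiation, against 21.8 and 20.8 CPM in proliferation, and the secreted phosphoprotein gene Spp1, osteopontin, had 0.0561 and 0 CPM in differentiation, against 12.4 and 16.9 CPM in proliferation. With 1 to 2 counts over the WT differentiation libraries, their ratios of WT proliferation over WT differentiation were 389 for Mxd3 (95% counting interval 107 to 3220) and 535 for Spp1 (95.6 to 21200). Rab26, a small GTPase of secretory vesicles, had 0.449 and 0.161 CPM in differentiation, against 121 and 104 CPM in proliferation. Single libraries moved some fitted log2 fold changes. Ccnb1 was -8.03 without WT differentiation replicate 7 and -10.01 without WT differentiation replicate 8. Depdc1a was -8.85 with all libraries and -9.65 without WT differentiation replicate 8. Pimreg was -8.43 with all and -9.52 without WT differentiation replicate 7 and -7.80 without WT differentiation replicate 8. Rab26 was -8.51 with all and -9.41 without WT differentiation replicate 7.

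Promoters of the fallen genes are shown because the members of both lists moved together and share letters that the choice of lists did not use. RefSeq promoter windows of GRCm38.p6, from 250 bases before to 50 bases after the gene start, were matched by gene ID to 10440 of the 13046 tested genes, to 39 of 48 mitosis genes and to 36 of 45 DNA replication genes. The CHR letters TTTGAA stood on either strand in 29 of 39 mitosis promoters (74.4%), against 11.5% of the promoters of all tested genes and 18.1% of all 27025 RefSeq windows. The CCAAT box letters CCAAT also stood in 29 of 39 (74.4%), against 39.4% of the promoters of tested genes. They also stood in 15 of 17 cholesterol synthesis promoters (88.2%) and 23 of 36 DNA replication promoters (63.9%), and so were not particular to mitosis genes. CHR and CCAAT were both present in 25 of 39 mitosis promoters (64.1%), against 5.12% of the promoters of tested genes. Of 37 CHR matches in mitosis promoters, 29 lay within 100 bases of the start. The E2F letters TTTGGCGC or TTTCCCGC stood in 12 of 36 DNA replication promoters (33.3%), against 3.10% of the promoters of tested genes, and in 2 of 39 mitosis promoters (5.13%). CHR and CCAAT box matches can share at most 1 base, and a match describes the letters of the window, not a bound site. Cdk1, the kinase partner of B cyclins, had 1.07 and 2.14 CPM in differentiation, against 204 and 194 CPM in proliferation. Mcm6, a subunit of the replicative helicase, had 23.3 and 21.6 CPM in differentiation, against 276 and 275 CPM in proliferation. Cdk1 and Mcm6 were chosen for their letters after their values were seen. The 150 bases before the start are written 5′ to 3′ in the direction of the gene. Capitals mark CHR (TTTGAA, or TTCAAA on the other strand) and CCAAT box (CCAAT, or ATTGG on the other strand), and in Mcm6 the E2F letters alone.
Mki67 (chr7:135716380-135716529, minus strand): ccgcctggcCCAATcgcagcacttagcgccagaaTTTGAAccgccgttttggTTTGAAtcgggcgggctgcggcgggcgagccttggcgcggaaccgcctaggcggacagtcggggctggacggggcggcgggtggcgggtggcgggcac
Cdk1 (chr10:69352913-69353062, minus strand): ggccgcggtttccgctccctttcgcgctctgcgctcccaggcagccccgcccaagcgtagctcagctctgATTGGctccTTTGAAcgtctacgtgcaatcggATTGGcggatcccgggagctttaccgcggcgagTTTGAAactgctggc
Kif11 (chr19:37376232-37376381, plus strand): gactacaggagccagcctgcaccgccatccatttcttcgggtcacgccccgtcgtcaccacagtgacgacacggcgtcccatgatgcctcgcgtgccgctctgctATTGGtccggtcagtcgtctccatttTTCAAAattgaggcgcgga
Ccnb1 (chr13:100786487-100786636, minus strand): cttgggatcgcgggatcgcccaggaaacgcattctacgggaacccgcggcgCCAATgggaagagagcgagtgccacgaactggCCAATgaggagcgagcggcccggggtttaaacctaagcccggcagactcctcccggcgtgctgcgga
Mcm6 (chr1:128359706-128359855, minus strand): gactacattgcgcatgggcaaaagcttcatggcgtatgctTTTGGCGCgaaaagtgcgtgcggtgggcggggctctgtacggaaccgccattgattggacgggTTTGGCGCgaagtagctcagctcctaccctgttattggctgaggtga
The CHR letters began 116 and 98 bases before the start of Mki67, 71 and 15 bases before that of Cdk1 and 19 bases before that of Kif11. The Ccnb1 stretch held the CCAAT box at 99 and 67 bases and no TTTGAA letters, and its promoter window held none either. Only these exact letters were searched for, so variant forms of CHR were not counted. In Mcm6 the E2F letters began 110 and 47 bases before the start.

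**Figure D2:**
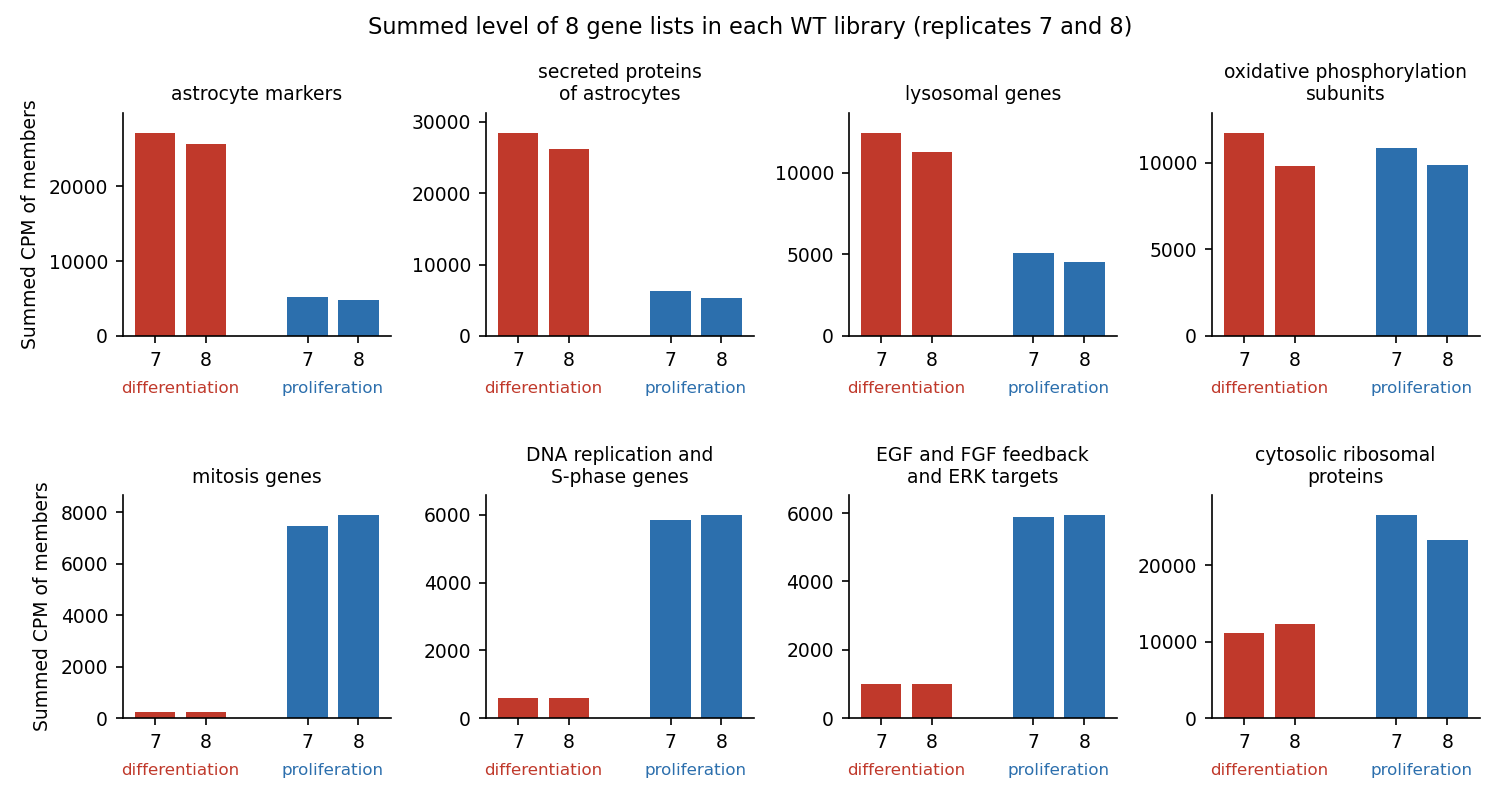
Bars give the summed CPM of the members of 8 gene lists in each of the 4 WT libraries, from 0, with WT differentiation (red) left of WT proliferation (blue). Mitosis genes fell to 233 and 228 CPM in WT differentiation against 7460 and 7887 CPM in WT proliferation, while the summed subunits of oxidative phosphorylation stood at similar heights in both groups.

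Regulators upstream of the cycle changed less uniformly. Of 8 D cyclins, their kinases and MYC factors tested, 6 fell and none rose (1 rose without WT differentiation replicate 8), and of 22 inhibitors of the cycle tested, 9 rose, 5 fell and 8 were not called (median 0.32). Ccnd1, cyclin D1, which ties growth factor signals to the cell cycle (gene ID 12443, chromosome 7, 144929931 to 144939937), had 24.3 and 36.7 CPM in differentiation, against 2499 and 2643 CPM in proliferation (log2 fold change -6.44 ± 0.414, edgeR adjusted p = 2.28e-05). That is an 84.4-fold lower level in WT differentiation, and both libraries of that group lay far below both of WT proliferation. Ccnd2, cyclin D2, had 112 and 164 CPM in differentiation, against 462 and 551 CPM in proliferation, a smaller fall (-1.91), and Ccnd3, cyclin D3, averaged 65.5 ± 9.38 CPM in differentiation and 66.1 ± 9.92 CPM in proliferation (SD, n = 2) and was not called. The kinases fell moderately, Cdk4 to 253 ± 46.7 CPM in WT differentiation against 556 ± 34.9 CPM in WT proliferation (SD, n = 2; edgeR adjusted p = 0.000108) and Cdk2 with a log2 fold change of -1.78. Myc, a growth-promoting factor, had 43.8 and 61.3 CPM in differentiation, against 144 and 143 CPM in proliferation (log2 fold change -1.48 ± 0.262, edgeR adjusted p = 0.00244).

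Among the inhibitors of the cycle, Cdkn2b, p15 of the INK4 family, had 29.1 and 25.2 CPM in differentiation, against 2.65 and 1.28 CPM in proliferation (log2 fold change 3.85 ± 0.25, edgeR adjusted p = 6.53e-06). Btg2, an antiproliferative cofactor, had 264 and 291 CPM in differentiation, against 77.3 and 114 CPM in proliferation (log2 fold change 1.57 ± 0.148, edgeR adjusted p = 4.55e-05). The other INK4 genes Cdkn2c and Cdkn2d moved the other way, with log2 fold changes of -1.85 and -1.39 (edgeR adjusted p = 1.63e-05 and 1.71e-05). Cdkn1a, p21, a target of p53, had 516 and 416 CPM in differentiation, against 329 and 434 CPM in proliferation and was not called (log2 fold change 0.28, edgeR adjusted p = 0.396), and the libraries of both groups overlapped. Rbl1, the pocket protein p107, had 12.7 and 11.7 CPM in differentiation, against 83.8 and 82.98 CPM in proliferation (log2 fold change -2.77 ± 0.109, edgeR adjusted p = 4.86e-07). Trp53 itself had 59.2 and 70.7 CPM in differentiation, against 145 and 141 CPM in proliferation (log2 fold change -1.15 ± 0.144, edgeR adjusted p = 0.000212). Of 22 tested p53 targets 7 rose, 6 fell and 9 were not called (median 0.05), shares near the background of 33.8% and 33.5%, and without WT differentiation replicate 8 the count called lower was 3. With 1 library left out, between 6 and 11 of the cycle inhibitors were called higher.

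Targets and feedback regulators of EGF and FGF signalling fell as a group. Of 22 tested, 16 fell, 4 rose (2 without WT differentiation replicate 8, WT proliferation replicate 8 or the replicate block) and 2 were not called (median -1.54), and their summed level was 1007 and 989 CPM in WT differentiation, against 5873 and 5932 CPM in WT proliferation. Ccnd1, given above, is on this list too and held 2499 and 2643 CPM of the sums in proliferation, and Etv5 held 1007 and 810.5 CPM. Spry4, a Sprouty inhibitor of receptor tyrosine kinase signalling (gene ID 24066, chromosome 18, 38586247 to 38601347), had 6.17 and 2.57 CPM in differentiation, against 367 and 291 CPM in proliferation (log2 fold change -6.28 ± 0.291, edgeR adjusted p = 3.8e-06). Its paralog Spry1 had 8.58 and 5.52 CPM in differentiation, against 169.5 and 144 CPM in proliferation. Dusp4, a phosphatase that acts on MAP kinases, had 3.53 and 2.41 CPM in differentiation, against 86.8 and 59.8 CPM in proliferation (log2 fold change -4.63 ± 0.175, edgeR adjusted p = 4.06e-07). All 3 were at or under 10 CPM in WT differentiation and above 59 CPM in every WT proliferation library. Etv5, an ETS factor induced by FGF, had 71.1 and 39.1 CPM in differentiation, against 1007 and 810.5 CPM in proliferation (log2 fold change -4.10 ± 0.255, edgeR adjusted p = 1.2e-05). Hmga2, a chromatin protein of young progenitors, had 0.224 and 0.161 CPM in differentiation, against 25.6 and 29.9 CPM in proliferation (log2 fold change -7.13 ± 0.302, edgeR adjusted p = 7.24e-07). Egr1, an immediate early factor, had 11.95 and 13.6 CPM in differentiation, against 119.6 and 295 CPM in proliferation (log2 fold change -3.88 ± 0.463, edgeR adjusted p = 0.000477).

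Fos and Il17rd went the other way. Fos, the AP-1 subunit, had 95.4 and 80.96 CPM in differentiation, against 5.08 and 11.2 CPM in proliferation (log2 fold change 3.55 ± 0.539, edgeR adjusted p = 0.00143). Il17rd, known as SEF, an inhibitor of FGF signalling, had 37.4 and 34.2 CPM in differentiation, against 6.88 and 7.22 CPM in proliferation (log2 fold change 2.35 ± 0.22, edgeR adjusted p = 4.93e-05). Over all 21 tested immediate early genes, 5 rose, 7 fell and 9 were not called, with Jund (AP-1 subunit, 1.71) and Atf3 (stress-induced factor, 3.08) among the risen and Klf4 (a Krüppel-like factor, -2.02) among the fallen. Of the 7 tested receptors 3 were higher and 3 lower, beside shares of 33.8% and 33.5% over all tested genes. Fewer receptors were called lower without WT differentiation replicate 7. Fgfr2 had 91.7 and 64.6 CPM in differentiation, against 17.4 and 11.7 CPM in proliferation (log2 fold change 2.43 ± 0.136, edgeR adjusted p = 3.16e-06). Fgfr1 had 137 and 125 CPM in differentiation, against 263 and 229.7 CPM in proliferation (log2 fold change -0.91 ± 0.103, edgeR adjusted p = 0.000119). Egfr had 302 and 229 CPM in differentiation, against 352 and 312 CPM in proliferation, the smallest of these falls (log2 fold change -0.34 ± 0.114, edgeR adjusted p = 0.0287), and this call was lost without the replicate block (edgeR adjusted p = 0.292). Erbb4, a neuregulin receptor of the EGF receptor family, had 196 and 198 CPM in differentiation, against 16.2 and 51.8 CPM in proliferation (log2 fold change 2.69 ± 0.462, edgeR adjusted p = 0.00248). Single libraries moved Fos to 2.95 without WT differentiation replicate 7 and Erbb4 to 2.10 without WT proliferation replicate 7 and 3.45 without WT proliferation replicate 8, and the Egfr call was lost without WT differentiation replicate 7, WT differentiation replicate 8 or WT proliferation replicate 8 (edgeR adjusted p = 0.101, 0.124 and 0.307).

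Genes of ribosome making and translation fell together and by similar amounts. All 34 tested genes of ribosome biogenesis fell (median -1.50, range -2.21 to -0.61), and 43 of 44 cytosolic ribosomal protein genes fell (median -1.07, range -1.52 to -0.24). Ribosomal protein genes held 11151 and 12352 CPM in WT differentiation, against 26495 and 23275 CPM in WT proliferation. Many of these genes have near-identical pseudogene copies that can share reads, so single values are uncertain, and the list is narrow in its spread. Rpsa, the laminin receptor and small subunit protein, had 646 and 731 CPM in differentiation, against 2030 and 1858 CPM in proliferation (log2 fold change -1.50 ± 0.117, edgeR adjusted p = 1.72e-05). Rplp0, of the ribosomal stalk, had 587 and 697 CPM in differentiation, against 1490 and 1490 CPM in proliferation. Dkc1, the pseudouridine synthase dyskerin, had 26.4 and 31.6 CPM in differentiation, against 126 and 130 CPM in proliferation (log2 fold change -2.15 ± 0.11, edgeR adjusted p = 2.07e-06). Nop58, a core protein of box C/D particles, had 32.4 and 36.7 CPM in differentiation, against 143 and 126 CPM in proliferation. In each of these genes both WT differentiation libraries were lower. The elongation factor gene Eef1a1 lost the most CPM of any gene named by the rule, with 4958 and 5073 CPM in differentiation, against 11291 and 10347 CPM in proliferation (log2 fold change -1.11 ± 0.126, edgeR adjusted p = 0.00012).

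Of 28 aminoacyl-tRNA synthetases and amino acid stress genes, 17 fell and 8 rose (median -0.64). Synthetases were among the falls, with Vars (valine) at -2.11, Gars (glycine) at -1.32, Iars (isoleucine) at -1.25 and Tars (threonine) at -1.17 in log2 fold change (edgeR adjusted p between 8.87e-06 and 3.43e-05). Serine synthesis was split between its enzymes. Phgdh, the first enzyme of the pathway, had 913 and 817 CPM in differentiation, against 275 and 325 CPM in proliferation (log2 fold change 1.53 ± 0.183, edgeR adjusted p = 0.000182). Psat1, the next one, had 122 and 133 CPM in differentiation, against 652 and 562 CPM in proliferation (log2 fold change -2.25 ± 0.133, edgeR adjusted p = 4.26e-06). Shmt2, which passes a carbon from serine to folate in mitochondria, fell as well (-1.63). Slc7a11, the cystine and glutamate exchanger, had 85.1 and 84.98 CPM in differentiation, against 16.3 and 16.9 CPM in proliferation (log2 fold change 2.36 ± 0.231, edgeR adjusted p = 0.000106), and its partner Slc3a2 rose too (0.89).

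Chromatin genes tied to growth fell. Of 25 tested, 17 fell and 4 rose (median -1.22). Ezh2, the methyltransferase of Polycomb complex 2, had 27.7 and 31.2 CPM in differentiation, against 149 and 170.4 CPM in proliferation (log2 fold change -2.44 ± 0.099, edgeR adjusted p = 5.73e-07). Its paralog Ezh1 had 25.4 and 21.1 CPM in differentiation, against 6.67 and 7.65 CPM in proliferation (log2 fold change 1.70 ± 0.163, edgeR adjusted p = 4.91e-05). Hells, a remodeller needed for DNA methylation, had 1.74 and 2.47 CPM in differentiation, against 84.3 and 92.4 CPM in proliferation (log2 fold change -5.39 ± 0.146, edgeR adjusted p = 1.38e-07). Cbx7, a Polycomb subunit, rose to 13.2 ± 2.98 CPM in WT differentiation against 3.58 ± 0.0285 CPM in WT proliferation (SD, n = 2; 1.87, edgeR adjusted p = 0.000122), and Tet2, which oxidises methylcytosine, rose with a log2 fold change of 1.09. The nuclear lamina gene Lmnb1, lamin B1, fell 10.6-fold, with 42.4 and 46.1 CPM in differentiation, against 482 and 453 CPM in proliferation (log2 fold change -3.40 ± 0.116, edgeR adjusted p = 2.69e-07).

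Genes of astrocytes rose. Of 23 tested astrocyte markers 19 rose, 2 fell and 2 were not called (median 2.95), beside the 33.8% of all tested genes that rose, and 18 of 21 astrocyte transporters, channels and junction genes rose (median 2.36). Without WT differentiation replicate 7 or WT proliferation replicate 8, 1 astrocyte marker fell, and without the replicate block none did. The summed level of astrocyte markers was 27121 and 25732 CPM in WT differentiation, against 5260 and 4832 CPM in WT proliferation. Gfap, the intermediate filament that defines mature and reactive astrocytes (gene ID 14580, chromosome 11, 102887336 to 102897200), had 2918 and 2503 CPM in differentiation, against 0.318 and 0.531 CPM in proliferation, the largest rise by the rule (log2 fold change 12.71 ± 0.659, edgeR adjusted p = 1.32e-05). In WT proliferation it was thus close to 0, with 6 and 10 counts, and in WT differentiation it was among the 8 genes with the largest gain in CPM. Aqp4, the water channel of astrocyte endfeet (gene ID 11829, chromosome 18, 15389394 to 15410982), had 587 and 1712 CPM in differentiation, against 1.43 and 4.04 CPM in proliferation (log2 fold change 8.79 ± 0.349, edgeR adjusted p = 1.94e-06), with the lower of the WT differentiation libraries still far above both WT proliferation libraries. The fitted log2 fold change of Gfap was 11.97 without WT differentiation replicate 7 and 13.54 without WT differentiation replicate 8.

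Slc1a2, the main glutamate transporter (gene ID 20511, chromosome 2, 102658239 to 102790784), had 1696 and 1058 CPM in differentiation, against 46.4 and 49.4 CPM in proliferation (log2 fold change 4.78 ± 0.244, edgeR adjusted p = 3.86e-06). Slc6a11, a GABA transporter, had 2114 and 1684 CPM in differentiation, against 97.8 and 116 CPM in proliferation (log2 fold change 4.14 ± 0.201, edgeR adjusted p = 1.81e-06). Slc4a4, a sodium bicarbonate cotransporter, had 1510 and 1091 CPM in differentiation, against 90.1 and 73.4 CPM in proliferation (log2 fold change 3.98 ± 0.119, edgeR adjusted p = 1.81e-07). Atp1b2, a subunit of the sodium pump of glia, had 1987 and 1699 CPM in differentiation, against 165 and 247 CPM in proliferation. Glul, glutamine synthetase, had 859 and 596 CPM in differentiation, against 221 and 152 CPM in proliferation, a rise within a narrower range (1.97). The groups did not overlap for any of these 5 genes, which also held for 81.2% of all tested genes. Slc14a1, a urea transporter, had 7.80 and 15.7 CPM in WT differentiation and no count in WT proliferation, which makes it at least 149-fold higher with a floor of 3 counts over the group. Slco1c1, a thyroxine transporter listed as an astrocyte marker, was the exception in the other direction, with 0 and 0.0536 CPM in WT differentiation, against 1.06 and 0.213 CPM in WT proliferation (edgeR adjusted p = 0.0241). Its call was lost when WT differentiation replicate 7 (edgeR adjusted p = 0.634), WT proliferation replicate 7 (0.0815) or WT proliferation replicate 8 (0.0599) was left out, and without the replicate block (0.131). Fgfr3, a receptor that marks astrocytes, rose by 1.36 in log2 fold change (edgeR adjusted p = 0.0193), a call lost without WT differentiation replicate 7 (0.101) or WT proliferation replicate 7 (0.13).

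**Figure D3:**
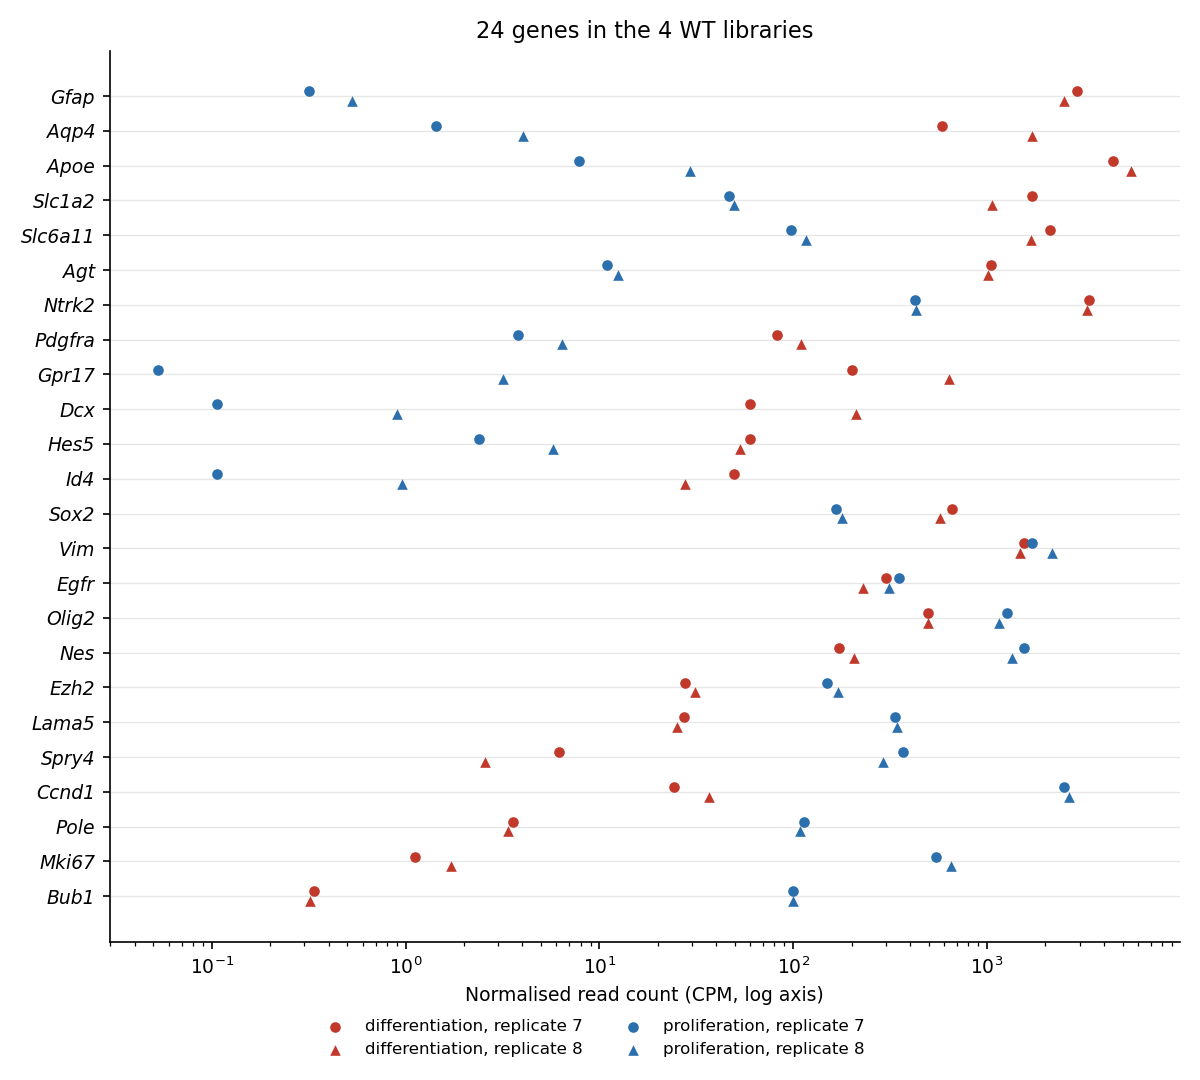
Points give the normalised read count of 24 genes in each WT library, in CPM on a log axis, with WT differentiation in red and WT proliferation in blue, circles for replicate 7 and triangles for replicate 8. From Gfap down to Sox2 the red points lie to the right of the blue ones, for Vim and Egfr they lie close together, and from Olig2 down to Bub1 the red points lie to the left.

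Genes of secreted astrocyte proteins rose as well. Of 26 tested, 18 rose, 6 fell and 2 were not called (median 3.05), and their summed level was 28399 and 26200 CPM in WT differentiation, against 6241 and 5354 CPM in WT proliferation. Apoe, the lipid carrier of the brain (gene ID 11816, chromosome 7, 19696244 to 19701310), had 4453 and 5538 CPM in differentiation, against 7.84 and 29.4 CPM in proliferation (log2 fold change 8.29 ± 0.642, edgeR adjusted p = 7.06e-05). Sparcl1, hevin, a matricellular protein that acts on synapses, had 7533 and 4312 CPM in differentiation, against 496 and 260.4 CPM in proliferation (log2 fold change 3.99 ± 0.196, edgeR adjusted p = 1.77e-06). Its relative Sparc had 3881 and 3026 CPM in differentiation, against 588 and 729 CPM in proliferation (log2 fold change 2.42 ± 0.32, edgeR adjusted p = 0.000625). Cst3, cystatin C, a protease inhibitor, had 2879 and 2480 CPM in differentiation, against 124 and 140.5 CPM in proliferation. Agt, angiotensinogen, had 1048 and 1012 CPM in differentiation, against 10.96 and 12.5 CPM in proliferation (log2 fold change 6.46 ± 0.144, edgeR adjusted p = 9.84e-08). Per transcript length, Cst3 and Apoe had ranks 2 and 3 of all genes in differentiation. Cst3 had 10663 and 9405 TPM in differentiation, against 418 and 511 TPM in proliferation. Apoe had 8738 and 11248 TPM in differentiation, against 10.7 and 54.3 TPM in proliferation.

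Not every secreted gene followed. Igfbp2, a binding protein of insulin-like growth factors, had 69.4 and 62.6 CPM in differentiation, against 1865 and 1202 CPM in proliferation (log2 fold change -4.51 ± 0.19, edgeR adjusted p = 7.72e-07). Chrdl1, a BMP antagonist, had 3.31 and 3.22 CPM in differentiation, against 31.6 and 33.3 CPM in proliferation (log2 fold change -3.31 ± 0.228, edgeR adjusted p = 9.09e-06). Pla2g7, a lipoprotein-associated phospholipase, differed between replicates, with 3.70 and 156 CPM in differentiation, against 0.0529 and 0.691 CPM in proliferation, and the log2 difference was 4.56 within replicate number 7 and 7.61 within replicate number 8. Of the 21 tested genes of reactive astrocytes, 11 rose, 2 fell and 8 were not called (median 1.35), and without WT proliferation replicate 7 or the replicate block 1 fell. C3, the complement component, had 5.44 and 13.8 CPM in differentiation, against 0.0529 and 0.584 CPM in proliferation. Gbp2, an interferon-inducible GTPase, had 18.8 and 21.8 CPM in differentiation, against 1.48 and 1.12 CPM in proliferation (log2 fold change 3.98 ± 0.316, edgeR adjusted p = 1.84e-05). Emp1, a membrane protein of reactive astrocytes, had 9.54 and 10.8 CPM in differentiation, against 0.0529 and 0.0531 CPM in proliferation, a ratio of 192 from 1 count in each WT proliferation library (95% counting interval 52.7 to 1590). Cp, ceruloplasmin, fell (-1.87, edgeR adjusted p = 3.79e-06). The fitted log2 fold change of Apoe was 8.96 without WT proliferation replicate 8, that of C3 was 5.03 with all libraries and 5.63 without WT differentiation replicate 8 and 6.36 without WT proliferation replicate 8, and that of Pla2g7 was 7.57 with all libraries and 6.76 without WT differentiation replicate 8 and 6.29 without WT proliferation replicate 8.

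The remaining steep rises by the rule include several genes with no count in WT proliferation. Fmod, fibromodulin, a small leucine-rich proteoglycan, had 8.41 and 25.2 CPM in WT differentiation and was at least 213-fold higher. Entpd2, an ectonucleotidase, had 18.7 and 11.2 CPM in WT differentiation and was at least 187-fold higher, and Gpr149, an orphan receptor, had 3.254 and 18.02 CPM and was at least 136-fold higher. These bounds use the floor of 3 counts over WT proliferation. Fxyd1, phospholemman, a regulator of the sodium pump, had 30.7 and 45.5 CPM in differentiation, against 0 and 0.0531 CPM in proliferation. Lgi4, a secreted glial protein, had 35 and 62.1 CPM in differentiation, against 0 and 0.106 CPM in proliferation. They lie next to each other on chromosome 7, at 31051678 to 31055873 and 31058909 to 31070935 (GRCm38). Cd38, an enzyme that consumes NAD, had 62.1 and 28.1 CPM in differentiation, against 0.106 and 0.0531 CPM in proliferation with 3 counts over WT proliferation, and Shisa9, an auxiliary protein of AMPA receptors, had 62.3 and 71.8 CPM in differentiation, against 0.106 and 0.212 CPM in proliferation (log2 fold change 8.66 ± 0.219, edgeR adjusted p = 1.29e-07). The counting ratios of differentiation over proliferation were 1440 for Fxyd1 (95% counting interval 258 to 57000), 921 for Lgi4 (255 to 7610) and 562 for Cd38 (192 to 2730). Ndrg2, a stress-responsive protein of astrocytes, had 2529 and 3110 CPM in differentiation, against 3.60 and 22.2 CPM in proliferation (log2 fold change 8.15 ± 0.761, edgeR adjusted p = 0.000159), and with single libraries left out its fitted value was 7.44 without WT differentiation replicate 7, 8.86 without WT differentiation replicate 8, 7.51 without WT proliferation replicate 7 and 9.16 without WT proliferation replicate 8. Ntrk2, the BDNF receptor, whose truncated form is carried by astrocytes, had 3344 and 3288 CPM in differentiation, against 425 and 430 CPM in proliferation with hardly any spread between replicates (log2 fold change 2.95 ± 0.111, edgeR adjusted p = 3.89e-07).

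Progenitor markers did not fall together. Of 17 tested, 6 rose, 5 fell and 6 were not called (median -0.29), and their summed level was 5804 and 4891 CPM in WT differentiation, against 6977 and 6800 CPM in WT proliferation. These counts were near the shares over all tested genes (33.8% higher and 33.5% lower). The labels name the cell type as neural stem cells, and transcripts of these markers were present in both groups. Some of the markers are shared with astrocytes, among them Sox2 and Fabp7, so the sum does not show how many stem cells remained. Nes, nestin, an intermediate filament of dividing progenitors (gene ID 18008, chromosome 3, 87971093 to 87980451), had 172 and 205 CPM in differentiation, against 1558 and 1345 CPM in proliferation (log2 fold change -2.93 ± 0.161, edgeR adjusted p = 2.87e-06). Sox2, a factor of stem cells and of astrocytes (gene ID 20674, chromosome 3, 34649995 to 34652461), had 662 and 572 CPM in differentiation, against 166 and 178 CPM in proliferation and rose (log2 fold change 1.84 ± 0.122, edgeR adjusted p = 7.19e-06). Vim, vimentin, had 1553 and 1486 CPM in differentiation, against 1700 and 2168 CPM in proliferation and was not called (log2 fold change -0.34, edgeR adjusted p = 0.0954). Fabp7, a fatty acid binding protein of radial glia, had 1235 and 864 CPM in differentiation, against 1880 and 1558 CPM in proliferation (log2 fold change -0.73 ± 0.112, edgeR adjusted p = 0.000617), and without the replicate block this call was lost (edgeR adjusted p = 0.0576). Msi1, the RNA-binding protein musashi, had 135 and 136 CPM in differentiation, against 30.3 and 46.3 CPM in proliferation and rose (log2 fold change 1.87 ± 0.189, edgeR adjusted p = 9.39e-05). Without WT differentiation replicate 8, 3 of the markers were called lower, and without the block 2. The list's median turned to 0.34 without WT differentiation replicate 8 and to 0.07 without WT proliferation replicate 7.

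Of 29 tested neural transcription factors, 17 rose, 5 fell and 7 were not called (median 0.50), where over all tested genes the shares were 33.8% higher and 33.5% lower. Sox9, which starts gliogenesis, had 313 and 321 CPM in differentiation, against 112 and 153 CPM in proliferation (log2 fold change 1.28 ± 0.148, edgeR adjusted p = 0.000137). Nfix, of the nuclear factor I family, had 761 and 657 CPM in WT differentiation, against 300.2 and 342 CPM in WT proliferation (log2 fold change 1.15, edgeR adjusted p = 0.000233). Nfix was named after its values were seen. Klf15 and Hopx, both linked to quiescent or mature glia, rose with log2 fold changes of 2.47 and 2.13 (edgeR adjusted p = 1.9e-06 and 0.000125). Olig2 and Olig1, factors of the oligodendrocyte lineage, fell. Olig2 had 494 and 495 CPM in differentiation, against 1263 and 1156 CPM in proliferation (log2 fold change -1.29 ± 0.124, edgeR adjusted p = 4.94e-05). Olig1 had 1267 and 1116 CPM in differentiation, against 2767 and 2989 CPM in proliferation (log2 fold change -1.27 ± 0.16, edgeR adjusted p = 0.000218). Sox11, a factor of immature neural cells, fell by 0.76 and Zeb1, a repressor of epithelial genes, by 0.93 on the log2 scale.

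Signalling pathways of glial fate moved in part. Of 12 tested BMP and TGF-beta targets 8 rose and 1 fell (median 2.07), and of 19 Notch pathway genes 11 rose and 3 fell (median 0.93), where over all tested genes the shares were 33.8% higher and 33.5% lower. Without WT proliferation replicate 7, 5 of the BMP and TGF-beta targets were called higher, and without WT differentiation replicate 7, 2 were called lower. The inhibitors of DNA binding Id2 and Id4 had rises of 3.51 and 6.13 (edgeR adjusted p = 9.95e-06 and 0.000154). Id4 had 49.3 and 27.6 CPM in differentiation, against 0.106 and 0.956 CPM in proliferation, low in both WT proliferation libraries but at different levels, and its fitted value was 5.54 without WT differentiation replicate 7, 5.09 without WT proliferation replicate 7 and 8.57 without WT proliferation replicate 8. Smad9, a BMP-responsive SMAD, had 23.6 and 24.3 CPM in differentiation, against 2.22 and 2.07 CPM in proliferation (log2 fold change 3.47 ± 0.227, edgeR adjusted p = 6.68e-06). Bambi, a decoy receptor, was the 1 that fell (-1.37). Among Notch genes, Hes5, a direct target, had 59.5 and 53.4 CPM in differentiation, against 2.38 and 5.79 CPM in proliferation (log2 fold change 3.85 ± 0.392, edgeR adjusted p = 0.00018). Hes1, another target, had 17.1 and 8.74 CPM in differentiation, against 34.7 and 34.4 CPM in proliferation (log2 fold change -1.49 ± 0.302, edgeR adjusted p = 0.00415). The targets of 1 pathway thus changed in opposite directions. Notch3, a receptor, had 219 and 233 CPM in differentiation, against 48.01 and 70.02 CPM in proliferation (log2 fold change 1.97 ± 0.169, edgeR adjusted p = 3.15e-05). Lfng, a glycosyltransferase that modifies Notch, had 44.4 and 34.96 CPM in differentiation, against 245 and 222 CPM in proliferation (log2 fold change -2.56 ± 0.107, edgeR adjusted p = 6.68e-07). Without WT proliferation replicate 8 the log2 fold change of Hes5 was 4.45.

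Of 9 tested Hedgehog pathway genes 3 rose and 3 fell, and of 13 Wnt targets and inhibitors 5 rose and 5 fell. These counts were near the shares over all tested genes (33.8% higher and 33.5% lower). Boc, a co-receptor of Hedgehog, had 49.2 and 47.8 CPM in differentiation, against 15.6 and 17.05 CPM in proliferation (log2 fold change 1.57 ± 0.119, edgeR adjusted p = 1.45e-05), while the co-receptor Cdon had 24.4 and 24.4 CPM in differentiation, against 79.1 and 131 CPM in proliferation (log2 fold change -2.05 ± 0.291, edgeR adjusted p = 0.000856) and the co-receptor Gas1 had 50.8 and 27.3 CPM in differentiation, against 253 and 181 CPM in proliferation (log2 fold change -2.50 ± 0.166, edgeR adjusted p = 8.59e-06). Tcf7, a factor of Wnt signalling, had 0.673 and 0.590 CPM in differentiation, against 7.78 and 7.22 CPM in proliferation (log2 fold change -3.56 ± 0.329, edgeR adjusted p = 4.03e-05). Without the replicate block 1 of the Wnt genes was called higher.

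YAP/TAZ-TEAD target genes, the readout of the protein that the study depletes in other cultures, were mixed in these WT cells. Of 20 tested, 11 rose, 4 fell and 5 were not called (median 0.84). Yap1 itself (gene ID 22601, chromosome 9, 7931999 to 8009565) had 107 and 93.7 CPM in differentiation, against 170.4 and 150.4 CPM in proliferation (log2 fold change -0.68 ± 0.144, edgeR adjusted p = 0.00358). Amotl2, an angiomotin that binds YAP, had 108 and 108 CPM in differentiation, against 9.69 and 14.98 CPM in proliferation (log2 fold change 3.16 ± 0.182, edgeR adjusted p = 4.4e-06). Its paralog Amotl1 had 128 and 117 CPM in differentiation, against 378 and 309 CPM in proliferation (log2 fold change -1.49 ± 0.0963, edgeR adjusted p = 6.53e-06). Axl, a receptor tyrosine kinase, had 213 and 169 CPM in differentiation, against 21.6 and 25.3 CPM in proliferation (log2 fold change 3.03 ± 0.155, edgeR adjusted p = 2.1e-06). Igfbp3, a binding protein of insulin-like growth factors, had 14.1 and 21.98 CPM in differentiation, against 716 and 565 CPM in proliferation (log2 fold change -5.17 ± 0.287, edgeR adjusted p = 9.9e-06). Yap1 was thus lower in differentiation, and 11 of the 15 targets called were higher. Without the block 2 targets fell, and with WT libraries only and no block 7 rose and 2 fell. The summed level of the list was lower in differentiation, with 1135 and 1158 CPM, against 1513 and 1416 CPM in proliferation. Igfbp3 alone held 716 and 565 CPM of the sums in proliferation, against 14.1 and 21.98 CPM in differentiation. The lower sum thus rests on that gene and does not describe the list.

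Oligodendrocyte lineage genes gave a mixed picture. Of 16 tested markers of oligodendrocyte precursors 9 rose, 3 fell and 4 were not called (median 0.88), and of 13 tested markers of mature oligodendrocytes 9 rose and 1 fell (median 1.53). Pdgfra, the receptor that defines precursors (gene ID 18595, chromosome 5, 75151322 to 75198206), had 82.4 and 110.2 CPM in differentiation, against 3.81 and 6.38 CPM in proliferation (log2 fold change 4.25 ± 0.151, edgeR adjusted p = 3.18e-07). Gpr17, a receptor of committed precursors, had 201 and 638 CPM in differentiation, against 0.0529 and 3.19 CPM in proliferation (log2 fold change 8.30 ± 0.573, edgeR adjusted p = 4.27e-05), and both differentiation libraries lay above both proliferation libraries. Cntn1, a contactin, had 251 and 369 CPM in differentiation, against 27 and 40.2 CPM in proliferation (log2 fold change 3.21 ± 0.102, edgeR adjusted p = 2.11e-07). Cspg4, the proteoglycan NG2, had 53.4 and 78.98 CPM in differentiation, against 98.99 and 108 CPM in proliferation (log2 fold change -0.67 ± 0.149, edgeR adjusted p = 0.00462), and this call was lost without the replicate block (edgeR adjusted p = 0.0519) or without WT differentiation replicate 7 (0.0535). Sox10, the factor that defines the lineage, was under 0.3 CPM in all 4 libraries, and it was named after its values were seen. The fitted log2 fold change of Gpr17 was 8.98 without WT differentiation replicate 8 and 11.49 without WT proliferation replicate 8.

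Of the mature oligodendrocyte genes, several rose and others were near 0. Myrf, the factor that drives myelin genes, had 10.2 and 14.7 CPM in differentiation, against 1.59 and 2.50 CPM in proliferation (log2 fold change 2.61 ± 0.246, edgeR adjusted p = 4.39e-05). Mbp, myelin basic protein, had 0.0561 and 0.429 CPM in differentiation, against 0 and 0.266 CPM in proliferation and was not called (edgeR adjusted p = 0.412), and Mag and Mobp, also chosen after their values were seen, had at most 0.106 CPM in any library. Trf, transferrin, was the 1 that fell, with 1.68 and 0.912 CPM in differentiation, against 50.8 and 20.4 CPM in proliferation (log2 fold change -4.74 ± 0.175, edgeR adjusted p = 3.62e-07).

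Neuronal genes rose to low or moderate levels. Of 14 tested neuron markers 9 rose, 1 fell and 4 were not called (median 1.61). Dcx, doublecortin of young neurons (gene ID 13193, chromosome X, 143855842 to 143933396), had 59.8 and 212 CPM in differentiation, against 0.106 and 0.903 CPM in proliferation (log2 fold change 8.15 ± 0.465, edgeR adjusted p = 1.38e-05), with replicate 8 the higher one in both groups. Rbfox3, the antigen NeuN, had 5.05 and 5.36 CPM in WT differentiation and no count in WT proliferation, at least 65.5-fold higher with the floor of 3 counts over the group. Tubb3, neuronal beta tubulin, had 38.8 and 38.7 CPM in differentiation, against 2.54 and 10.1 CPM in proliferation (log2 fold change 2.79 ± 0.503, edgeR adjusted p = 0.00307). Elavl3, an RNA-binding protein of neurons, had 22.7 and 40.2 CPM in differentiation, against 0.371 and 3.61 CPM in proliferation (log2 fold change 4.17 ± 0.427, edgeR adjusted p = 0.000175). Gap43, of growth cones and some progenitors, had 27.4 and 45.4 CPM in differentiation, against 187 and 186 CPM in proliferation and fell (log2 fold change -2.41 ± 0.187, edgeR adjusted p = 2.39e-05). Stmn2, of growing axons, and Slc32a1, the vesicular GABA transporter, were at 0.0531 CPM or less in every library, and were named after their values were seen. The count called higher was 5 without WT differentiation replicate 7 or WT proliferation replicate 7 and 4 without the replicate block. The fitted value was 8.93 without WT proliferation replicate 8 for Dcx, 2.20 without WT proliferation replicate 7 and 3.70 without WT proliferation replicate 8 for Tubb3 and 5.77 without WT proliferation replicate 8 for Elavl3.

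Of 23 tested synapse organisers and transmitter receptors, 12 rose, 5 fell and 6 were not called (median 0.71). Gabbr1, a subunit of the GABA-B receptor, had 328 and 318 CPM in differentiation, against 29.3 and 30.4 CPM in proliferation (log2 fold change 3.44 ± 0.123, edgeR adjusted p = 3.25e-07). Gabrb1, a GABA-A receptor subunit, had 58.9 and 75.1 CPM in differentiation, against 1.16 and 2.18 CPM in proliferation (log2 fold change 5.35 ± 0.18, edgeR adjusted p = 2.53e-07). Grm5, the metabotropic glutamate receptor of young astrocytes and neurons, had 10.3 and 10.9 CPM in differentiation, against 388 and 363 CPM in proliferation (log2 fold change -5.14 ± 0.183, edgeR adjusted p = 3.38e-07). Grin2a, an NMDA receptor subunit, had 1.23 and 1.77 CPM in differentiation, against 42.7 and 59.7 CPM in proliferation (log2 fold change -5.08 ± 0.153, edgeR adjusted p = 1.81e-07). Gria2, an AMPA receptor subunit, had 44.4 and 49.6 CPM in differentiation, against 7.78 and 9.19 CPM in proliferation and rose (log2 fold change 2.47 ± 0.129, edgeR adjusted p = 2.22e-06), so glutamate receptor genes went both ways. Without the replicate block 3 members of the list fell.

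**Figure D4:**
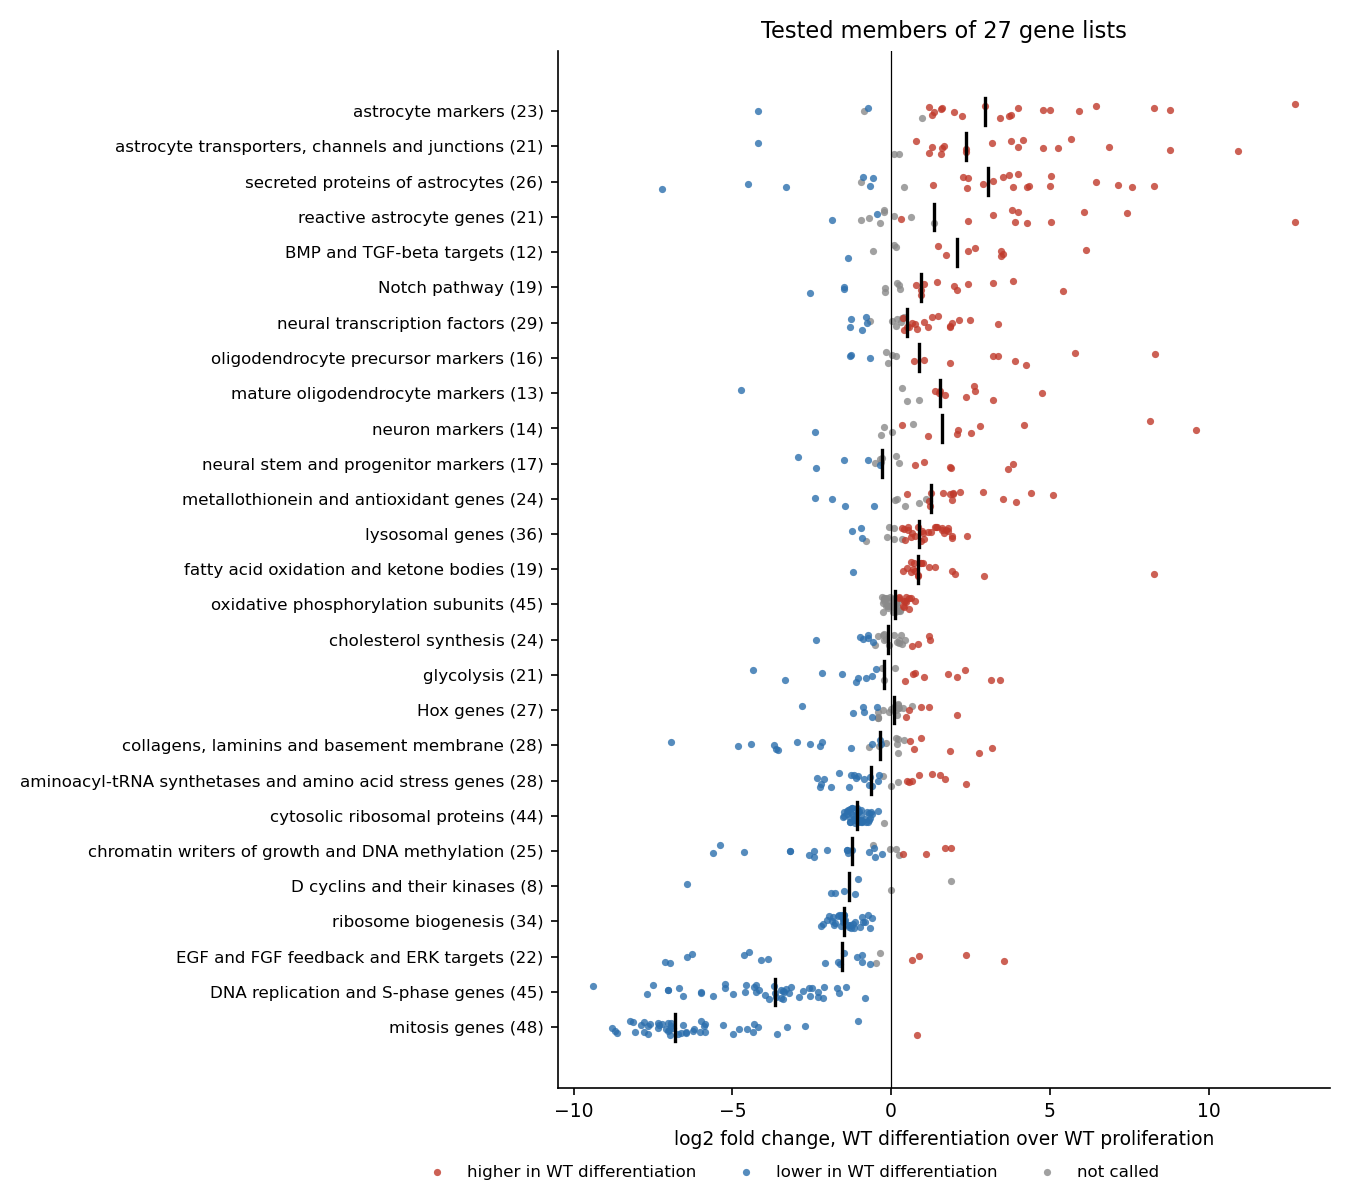
Each point is a tested member of 1 of 27 gene lists (number tested in brackets), placed by its log2 fold change of WT differentiation over WT proliferation, with black bars for the list medians. Red points were called higher, blue points lower and grey points not called. Medians run from 3.05 for secreted proteins of astrocytes to -6.80 for mitosis genes, and ribosomal protein, ribosome biogenesis and oxidative phosphorylation genes form tight clusters.

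Metabolic genes changed by pathway. Of 19 genes of fatty acid oxidation and ketone bodies 18 rose and 1 fell (median 0.84). Cpt1a, which brings fatty acids into mitochondria, had 367 and 326 CPM in differentiation, against 96.2 and 87.3 CPM in proliferation (log2 fold change 1.92 ± 0.142, edgeR adjusted p = 1.27e-05). Acadl, a dehydrogenase of long-chain fatty acids, had 349 and 302 CPM in differentiation, against 148 and 139.5 CPM in proliferation (log2 fold change 1.18 ± 0.115, edgeR adjusted p = 5.29e-05). Ppara, the nuclear receptor that controls this pathway, had 15.3 and 11.6 CPM in differentiation, against 3.81 and 2.87 CPM in proliferation (log2 fold change 2.01 ± 0.214, edgeR adjusted p = 8.49e-05). Acsl1, an acyl-CoA synthetase, was the 1 that fell (-1.21), whereas Acsl6, another one, rose (2.92). Subunits of oxidative phosphorylation changed little, with 12 of 45 higher, none lower and a median of 0.12 (range -0.28 to 0.76). Sdhc, of complex II, had the strongest call among them, with 241 and 193 CPM in differentiation, against 130.3 and 125 CPM in proliferation (log2 fold change 0.76 ± 0.107, edgeR adjusted p = 0.000407). The count called higher was 4 without WT differentiation replicate 7, 3 without WT proliferation replicate 7, 7 without WT proliferation replicate 8 and 6 without the replicate block, and 2 subunits were called lower with library totals only, with DESeq2 or with limma-voom.

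Glycolysis genes split evenly, with 9 of 21 higher, 9 lower and 3 not called (median -0.22). Aldoc, the aldolase of astrocytes (gene ID 11676, chromosome 11, 78323073 to 78327781), had 4582 and 3979 CPM in differentiation, against 458 and 337 CPM in proliferation (log2 fold change 3.44 ± 0.139, edgeR adjusted p = 5.66e-07). Hk1 and Hk2, the hexokinases that start the pathway, went opposite ways. Hk1 had 352 and 384 CPM in differentiation, against 97.4 and 78.3 CPM in proliferation (log2 fold change 2.08 ± 0.149, edgeR adjusted p = 1.11e-05). Hk2 had 0.673 and 1.82 CPM in differentiation, against 29.1 and 22.1 CPM in proliferation (log2 fold change -4.36 ± 0.389, edgeR adjusted p = 6.25e-05). Ldha, which makes lactate, had 198 and 181 CPM in differentiation, against 1029 and 711 CPM in proliferation (log2 fold change -2.19 ± 0.133, edgeR adjusted p = 4.83e-06). Pfkm, a phosphofructokinase, rose (1.79). Without WT differentiation replicate 8 the log2 fold change of Hk2 was -5.24 and the list's median was 0.10. Without the block 5 glycolysis genes were called lower.

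Of 24 cholesterol synthesis genes 4 rose, 6 fell and 14 were not called (median -0.11). Hmgcs1, which makes HMG-CoA, had 2595 and 3303 CPM in differentiation, against 1393 and 1200 CPM in proliferation (log2 fold change 1.19 ± 0.167, edgeR adjusted p = 0.000389). Scd2, a desaturase that makes monounsaturated fatty acids, gained the most CPM of all called genes, with 10345 and 12744 CPM in differentiation, against 5064 and 5814 CPM in proliferation (log2 fold change 1.08 ± 0.14, edgeR adjusted p = 0.000242). The sterol regulatory letters TCACNCCAC stood in 1 of 17 matched cholesterol promoters, against 1.01% of the promoters of tested genes. The count called higher was 7 without WT differentiation replicate 7 (3 lower), and 2 without WT differentiation replicate 8, WT proliferation replicate 8 or the replicate block.

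Lysosomal genes rose broadly and by modest amounts. Of 36 tested, 27 rose, 3 fell and 6 were not called (median 0.89), with summed levels of 12434 and 11294 CPM in WT differentiation, against 5118 and 4544 CPM in WT proliferation. Ctsl, cathepsin L, had 227 and 278 CPM in differentiation, against 46.3 and 49.7 CPM in proliferation (log2 fold change 2.38 ± 0.135, edgeR adjusted p = 3.43e-06). Lamp1, a major membrane protein of lysosomes, had 1478 and 1381 CPM in differentiation, against 511 and 442 CPM in proliferation (log2 fold change 1.59 ± 0.107, edgeR adjusted p = 7.86e-06). Cd63, a tetraspanin of late endosomes, had 980.4 and 901 CPM in differentiation, against 265 and 230.4 CPM in proliferation (log2 fold change 1.93 ± 0.101, edgeR adjusted p = 2.36e-06). The 3 that fell were the hydrolases Glb1, Gusb and Gla, with log2 fold changes of -1.23, -0.94 and -0.91, and the call of Gla was lost without WT proliferation replicate 7 (edgeR adjusted p = 0.0502). The CLEAR letters TCACGTGA stood in 4 of 27 matched lysosomal promoters (14.8%), against 1.88% of the promoters of tested genes.

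Metal-binding and antioxidant genes rose too. Of 24 tested, 15 rose, 4 fell (2 without WT proliferation replicate 8 or the replicate block) and 5 were not called (median 1.24). Gstm1, a glutathione transferase, had 2147 and 1763 CPM in differentiation, against 227 and 131 CPM in proliferation (log2 fold change 3.51 ± 0.195, edgeR adjusted p = 3.44e-06), although reads can be shared with its close paralogs. Prdx6, a peroxiredoxin, had 1797 and 1818 CPM in differentiation, against 194 and 311 CPM in proliferation (log2 fold change 2.88 ± 0.195, edgeR adjusted p = 9.47e-06). Gpx4, which reduces lipid peroxides, had 283 and 241 CPM in differentiation, against 89.8 and 80.8 CPM in proliferation (log2 fold change 1.62 ± 0.138, edgeR adjusted p = 2.68e-05). Per transcript length, Fth1, the ferritin heavy chain, stood at 7210 and 6299 TPM in WT differentiation, against 1917 and 1581 TPM in WT proliferation, and the metallothionein gene Mt1 at 6062 and 4453 TPM, against 246 and 408 TPM. Fth1 and Mt1 were named because they were among the 12 genes of highest TPM. Of 21 tested interferon response and antigen presentation genes 11 rose, 4 fell and 6 were not called (median 0.49), where over all tested genes the shares were 33.8% higher and 33.5% lower. Without WT proliferation replicate 8, and likewise without the replicate block, 7 were called higher. Without WT differentiation replicate 7, WT proliferation replicate 7 or the block, 1 was called lower. Tapbp, tapasin, of peptide loading, had 93.01 and 103 CPM in differentiation, against 43.9 and 33.7 CPM in proliferation (log2 fold change 1.35 ± 0.175, edgeR adjusted p = 0.000285).

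Of 28 tested collagen, laminin and basement membrane genes 14 fell, 6 rose and 8 were not called (median -0.36), where over all tested genes the shares were 33.8% higher and 33.5% lower. Without the replicate block 9 were called lower. Of 24 proteoglycan, tenascin and hyaluronan genes 12 rose, 8 fell and 4 were not called (median 0.10), and without the block 5 were called lower. Tnc, tenascin C, a matrix protein of the stem cell niche (gene ID 21923, chromosome 4, 63959785 to 64047015), had 81.3 and 65.3 CPM in differentiation, against 1827 and 4175 CPM in proliferation (log2 fold change -5.05 ± 0.646, edgeR adjusted p = 0.000654). Its level differed between the WT proliferation libraries, and both lay far above WT differentiation. Lama5, a laminin alpha chain, had 27.3 and 25.2 CPM in differentiation, against 334 and 344 CPM in proliferation (log2 fold change -3.69 ± 0.119, edgeR adjusted p = 2.11e-07). Lamb1, a laminin beta chain, had 12.1 and 16.7 CPM in differentiation, against 162 and 178 CPM in proliferation (log2 fold change -3.57 ± 0.131, edgeR adjusted p = 3.45e-07). Nid1, nidogen, which links laminin to collagen, rose instead, with 109 and 101 CPM in differentiation, against 11.5 and 11.4 CPM in proliferation (log2 fold change 3.19 ± 0.106, edgeR adjusted p = 2.45e-07). Hspg2, perlecan, fell by 2.97 and Fbn2, fibrillin 2, by 4.82 on the log2 scale. Serpine2, a secreted protease inhibitor, and Mest, an imprinted gene of growing tissue, were among the 8 genes with the largest loss in CPM. Serpine2 had 2550 and 2096 CPM in differentiation, against 5640 and 5175 CPM in proliferation (log2 fold change -1.22 ± 0.115, edgeR adjusted p = 4.45e-05). Mest had 132 and 295 CPM in differentiation, against 2599 and 2393 CPM in proliferation (log2 fold change -3.62 ± 0.325, edgeR adjusted p = 0.000102). The fitted log2 fold change of Tnc was -6.31 without WT differentiation replicate 7 and -4.23 without WT differentiation replicate 8, and that of Mest was -4.21 without WT differentiation replicate 8.

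Of 25 tested integrin and focal adhesion genes 12 fell, 10 rose and 3 were not called (median 0.10). Itgb1, the common beta subunit, had 325 and 334 CPM in differentiation, against 976 and 872 CPM in proliferation (log2 fold change -1.49 ± 0.113, edgeR adjusted p = 1.48e-05). Itga5, of the fibronectin receptor, had 10.4 and 14.7 CPM in differentiation, against 95.2 and 67.1 CPM in proliferation (log2 fold change -2.67 ± 0.236, edgeR adjusted p = 6.15e-05). Itgb5, of a vitronectin receptor, had 84.9 and 67.7 CPM in differentiation, against 14.2 and 14.6 CPM in proliferation (log2 fold change 2.40 ± 0.128, edgeR adjusted p = 2.58e-06). Itga6, of the laminin receptors, had 242 and 256 CPM in differentiation, against 132 and 122 CPM in proliferation (log2 fold change 0.97 ± 0.119, edgeR adjusted p = 0.000187). The direction thus depended on the subunit. Tubb5, a tubulin of dividing cells, had 385 and 465 CPM in differentiation, against 2004 and 1829 CPM in proliferation (log2 fold change -2.18 ± 0.141, edgeR adjusted p = 6.59e-06).

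Ependymal cells line the central canal with motile cilia and can act as progenitors in the cord. Of 24 listed markers, 12 were under 1 CPM in all 4 libraries, and 12 were tested. Of those tested 7 rose, 3 fell and 2 were not called (median 1.07). The count called higher was 4 without WT proliferation replicate 8 and 4 without the replicate block, and with 1 library left out the median ran from 0.62 to 0.92. Foxj1, the factor that drives motile cilia (gene ID 15223, chromosome 11, 116330704 to 116335499), had 51.3 and 63.3 CPM in differentiation, against 25.04 and 42.1 CPM in proliferation (log2 fold change 0.81 ± 0.134, edgeR adjusted p = 0.000937), a call lost without the replicate block (edgeR adjusted p = 0.1). Hydin, a protein of the axoneme, had 0.337 and 0.482 CPM in differentiation, against 20.3 and 13.6 CPM in proliferation and fell (log2 fold change -5.32 ± 0.29, edgeR adjusted p = 2.77e-06). Rfx2, a factor of cilium genes, had 19.8 and 18.8 CPM in differentiation, against 5.19 and 7.97 CPM in proliferation (log2 fold change 1.59 ± 0.214, edgeR adjusted p = 0.000304). Rfx4 had 296 and 273 CPM in differentiation, against 450 and 466 CPM in proliferation (log2 fold change -0.69 ± 0.111, edgeR adjusted p = 0.000822). Of 37 listed genes of the motile axoneme 13 were tested and 22 were under 1 CPM in all 4 libraries.

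Hox genes mark position along the spinal cord. Of 27 tested, 16 were not called, 6 fell and 5 rose (median 0.08). Hoxc8 had 36.1 and 45.04 CPM in differentiation, against 7.78 and 11.7 CPM in proliferation (log2 fold change 2.07 ± 0.147, edgeR adjusted p = 1.02e-05). Hoxa6 had 58.5 and 40 CPM in differentiation, against 86.4 and 96.05 CPM in proliferation (log2 fold change -0.89 ± 0.176, edgeR adjusted p = 0.00268). Hoxb9 had 4.99 and 0.429 CPM in differentiation, against 27.2 and 4.94 CPM in proliferation (log2 fold change -2.82 ± 0.333, edgeR adjusted p = 0.000169), higher in replicate 7 of either group, and its call was lost without the replicate block (edgeR adjusted p = 0.242). Without WT proliferation replicate 7 its log2 fold change was -3.53. The count called higher was 1 without WT differentiation replicate 7 or WT proliferation replicate 7, and 2 without WT proliferation replicate 8 or the block, and 3 fell without the block.

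Markers of other cell types were mostly low. Of 8 microglia and macrophage markers with a row, 6 were under 1 CPM in all 4 libraries and 2 were tested. Cd68, a macrophage protein of late endosomes, had 2.69 and 1.72 CPM in differentiation, against 1.64 and 0.691 CPM in proliferation and was not called (edgeR adjusted p = 0.0727). Of 9 tested endothelial, mural and fibroblast markers 3 rose and 5 fell, none of them at a mean of 10 CPM or more in either group. The measured markers of the list summed to 7.01 and 10.4 CPM in WT differentiation, against 7.41 and 7.81 CPM in WT proliferation, and Pecam1, of endothelial cells, had 0 and 0.0536 CPM in differentiation, against 0 and 0.106 CPM in proliferation. Pdgfrb, a receptor of mural cells, had 1.23 and 2.84 CPM in differentiation and no count in proliferation, at least 25.8-fold higher with the floor of 3 counts over the group. Rgs5, also of mural cells, had 1.29 and 1.93 CPM in differentiation, against 0 and 0.106 CPM in proliferation, a counting ratio of 30.5 (95% counting interval 8.08 to 258). Kdr, Tek, Lum, Col1a1 and Col3a1, of endothelial cells and fibroblasts, fell, each at or below 1.96 CPM in every library. Without WT differentiation replicate 8 or WT proliferation replicate 7, 2 of these markers were called lower. Among Schwann cell markers, 5 of 10 tested, none rose and 3 fell. Pou3f1, a factor shared by Schwann cells and neural progenitors, had 2.36 and 1.18 CPM in differentiation, against 170.5 and 133 CPM in proliferation (log2 fold change -6.44 ± 0.182, edgeR adjusted p = 1.61e-07), and the other tested ones were below 40 CPM in every library. These lists' levels were given only as measured, and their part in the results was not tested.

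**Figure D5:**
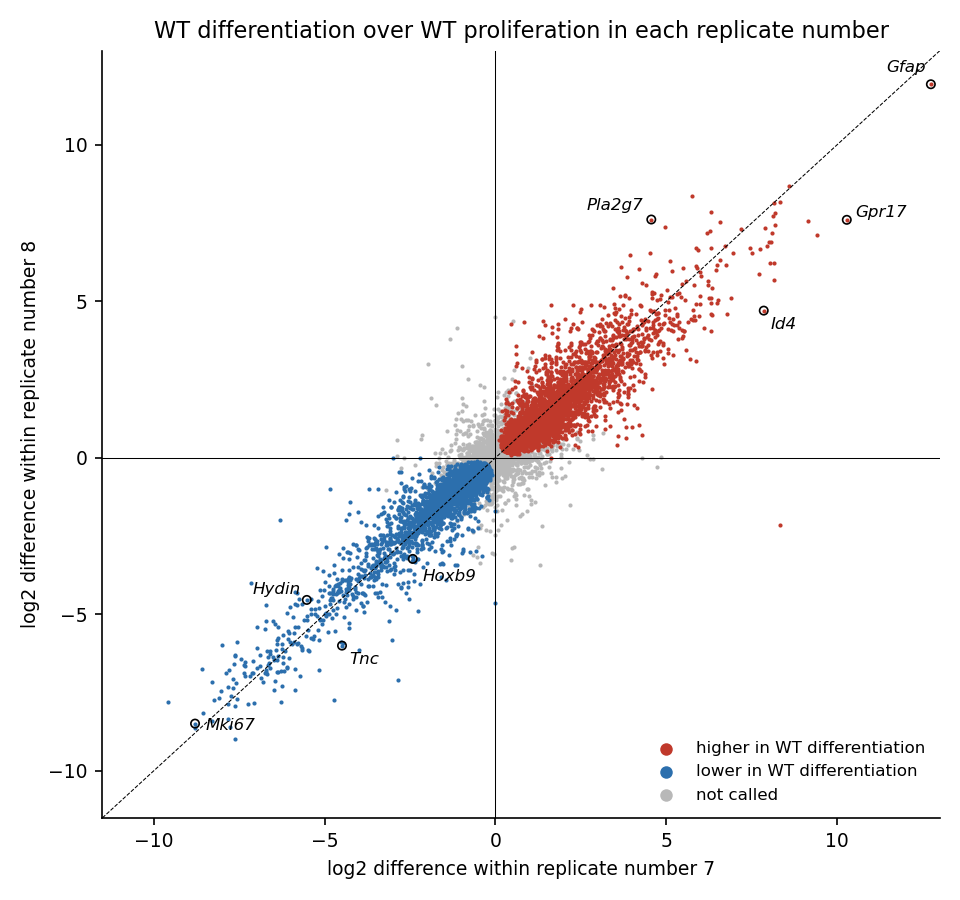
Each point is a tested gene, placed by its log2 difference of WT differentiation over WT proliferation within replicate number 7 (horizontal) and within replicate number 8 (vertical), from log2 CPM computed with 2 prior counts. Red genes were called higher, blue ones lower and grey ones not called, and the dashed line marks equal differences. The differences had the same sign for 99.9% of the called genes, a share favoured by the call itself, while Pla2g7 and Id4 lie off the line.

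The response of WT cells was compared with that of YAP1-depleted (KO) cells, which went through the same change of culture. No gene passed the test of the difference between both responses (0 of 13046, edgeR; limma-voom also 0, DESeq2 43), and 1143 genes (8.76%) had an unadjusted p under 0.05. The smallest adjusted p was 0.197. None of the changes above can therefore be called particular to WT cells by this test. The difference of both responses (WT minus KO, log2) was 1.68 ± 1.29 for Gfap, 1.46 for Mki67, 0.07 ± 0.196 for Foxj1 and -0.43 for Yap1. None of these differences passed the test.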

How the data were processed

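RNA from the cultures was measured by sequencing. The authors deposited, for each gene and library, an estimated count and a TPM value (transcript abundance scaled for length and depth), per the file headers. Aligner and counter: not given in the sources used here. GRCm39 is named per the submitters' processing notes, while 85.4% of the 16878 gene IDs matched to RefSeq GRCm38.p6 have the same start there, so positions are given as GRCm38. Columns were tied to samples by name. The 12 per-library columns of 4 libraries that match no label were not used, and 12 labelled samples were not analysed here. A line without a gene was left out.

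Estimated counts (6.51% not whole) were rounded. Genes were filtered with filterByExpr, normalised by TMM and fitted with edgeR 4.0.16 (R 4.3.3; robust quasi-likelihood F test, Benjamini-Hochberg adjustment, threshold 0.05) on 8 libraries, with group and replicate number as terms and 3 residual degrees of freedom. The block was set by the definition of the comparison. A change past 2-fold was tested with glmTreat. The fit was tested on simulated data. TPM values were used to rank genes by level, and they are given in both groups for Cst3, Apoe, Fth1 and Mt1. No test used TPM. Depth lay between 18217134 and 18940983 counts in the WT libraries, and intervals on low counts (95%, exact) cover counting error only. Alternatives were no block, WT libraries only, DESeq2 1.42.0 size factors, library totals, other filters, each WT library left out, the DESeq2 Wald test and limma-voom (limma 3.58.1).

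Named genes were the 12 largest rises and falls in log2 fold change (called, at least 10 CPM in the higher group, groups not overlapping, same sign within each replicate number, no unnamed gene models or sex-linked genes), the 8 largest gains and losses in CPM, and from each list the 6 members of smallest p and 3 called against its majority. Added to these were 20 fixed markers, and the text gives a selection. A few of these genes are not reported here. The comparison, the lists and this rule were chosen with earlier results of these data known. Figures were drawn with matplotlib 3.10.9.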

Additional observations from a re-analysis of the deposited data

How the results depend on the processing

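Without the replicate block, edgeR called 3520 genes higher and 3698 lower, and all 7218 were among the genes called with it. The numbers themselves show no shared source in the labels. The replicate deviations of WT differentiation and WT proliferation correlated at 0.538 across genes, from 1 pair of numbers. With 1 WT library left out, between 3399 and 3851 genes were higher and between 3428 and 3727 lower, and past 2-fold between 1296 and 1562 were higher and between 1007 and 1242 lower. The other settings called between 7129 and 8823 genes, and no shared call changed sign. Of 313 named genes, 48 lost or gained the call in some setting, 33 of them without the block, and none reversed. The test of the difference between WT and KO responses called 43 genes with DESeq2 and 0 with edgeR. Medians of several lists changed sign in some setting, and the cause was not tested. With WT libraries only the median was 1.80 (block) or 1.81 (no block) for endothelial, mural and fibroblast markers (-2.66 in the fit reported), -0.10 or -0.08 for proteoglycans, and -0.01 or -0.02 for immediate early genes. A filter at 1 CPM gave 0.90 for the endothelial list and -0.03 for integrins, and dropping the block gave -0.02 for immediate early genes. With 1 library left out the medians ran from -0.35 to 0.34 for progenitor markers, from -0.22 to 0.10 for glycolysis, from -0.07 to 0.23 for proteoglycans and from -0.20 to 0.30 for integrins. In the same fits they ran from -0.50 to 0.38 for Wnt genes and from -0.39 to 0.20 for cholesterol synthesis. For Hox genes they ran from -0.14 to 0.28, and for p53 targets from -0.10 to 0.35.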

Other observations

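Transcription factors as annotated in the deposited table are given by family, where the shares over all tested genes were 33.8% higher and 33.5% lower. Of 1095 tested, 397 rose and 248 fell (median log2 fold change 0.19). Among C2H2 zinc finger genes 182 of 474 rose and 59 fell, and among basic helix-loop-helix genes 24 of 54 rose and 10 fell (median 0.63). Of MYB-domain genes 3 of 27 rose and 14 fell, of HMG-box genes 12 of 39 rose and 20 fell, and of ETS genes 3 of 16 rose and 9 fell. Differences between families were not tested. These families were described after their values were seen.

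Genes higher by more than 2-fold had a median genomic span of 31.49 kb, against 25.57 kb for genes lower by more than 2-fold and 25.59 kb for genes not called.

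Gdf1, a growth factor gene, was called higher (edgeR adjusted p = 0.0133) on 1 library, with 34.44 and 0 CPM in WT differentiation, against 0 and 0.3719 CPM in WT proliferation. Its neighbour Cers1, a ceramide synthase gene that overlaps it, had 75.67 and 115.8 CPM in WT differentiation, against 45.9 and 32.73 CPM in WT proliferation, and was not called. Reads of overlapping genes cannot be told apart with certainty. Both were named after their values were seen.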
